A study of Homo sapiens with 13 samples.

Results

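Naive pluripotency is the ground state of the pre-implantation epiblast, and its marker genes are typically more active there than in conventional human embryonic stem cells, which resemble the later, primed epiblast. The 10 genes described here are KLF4, KLF5, KLF17, TFCP2L1, ESRRB, FGF4, DPPA3, DPPA5, DNMT3L and SUSD2. Each was placed at 1 transcription start site of the hg19 build, and every peak with at least 1 base within 10 kb of that site was taken. This gave 34 of the 136141 peaks in 7 deposited lists. The genes were chosen by name and not by a measured value, though with earlier results of these data known.

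The data came from the human embryonic stem cell line H1 (WA01), an established line, and from a clone of it that carries a homozygous Cas9 deletion of ZNF263, a C2H2 zinc finger transcription factor (clone 1-10, here KO). A further KO culture expressed FLAG-tagged ZNF263 ectopically, and unedited H1 cells (WT) were the comparison. Chromatin immunoprecipitation with sequencing mapped the histone marks H3K4me3, H3K27ac and H3K27me3 in KO and WT cells, with 1 library for each mark and genotype, and tagged ZNF263 in the FLAG culture, also with 1 library. All KO lists come from a single clone, so an effect of the deletion and a feature of that clone cannot be told apart. With 1 library in each group there was no test between genotypes and no replicate error, and differences below are differences between libraries.

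H3K4me3 marks promoters, H3K27ac active promoters and enhancers, and H3K27me3 chromatin held by Polycomb complexes. A promoter with both H3K4me3 and H3K27me3 is called bivalent, a state typical of developmental genes that are silent but inducible. In a bulk culture, both marks on the same chromosomes and each mark in different cells cannot be told apart. Peaks of the FLAG list are called FLAG peaks. They come from cells that express the tagged protein ectopically, so they need not be sites of the endogenous protein.

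The 10 genes fell into 4 classes. KLF4, KLF5, TFCP2L1, ESRRB and FGF4 carried H3K4me3 and H3K27me3 in both KO and WT cells, and none of the 5 had an H3K27ac peak within 10 kb in either genotype. DPPA5 had H3K27ac alone, in both genotypes. DNMT3L and SUSD2 had no mark in KO cells and a weak H3K4me3 peak in WT cells. KLF17 and DPPA3 had no peak of any of the 7 lists within 10 kb. FLAG peaks lay near 6 genes: KLF4, TFCP2L1, ESRRB, FGF4, DNMT3L and SUSD2.

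**Figure D1:**
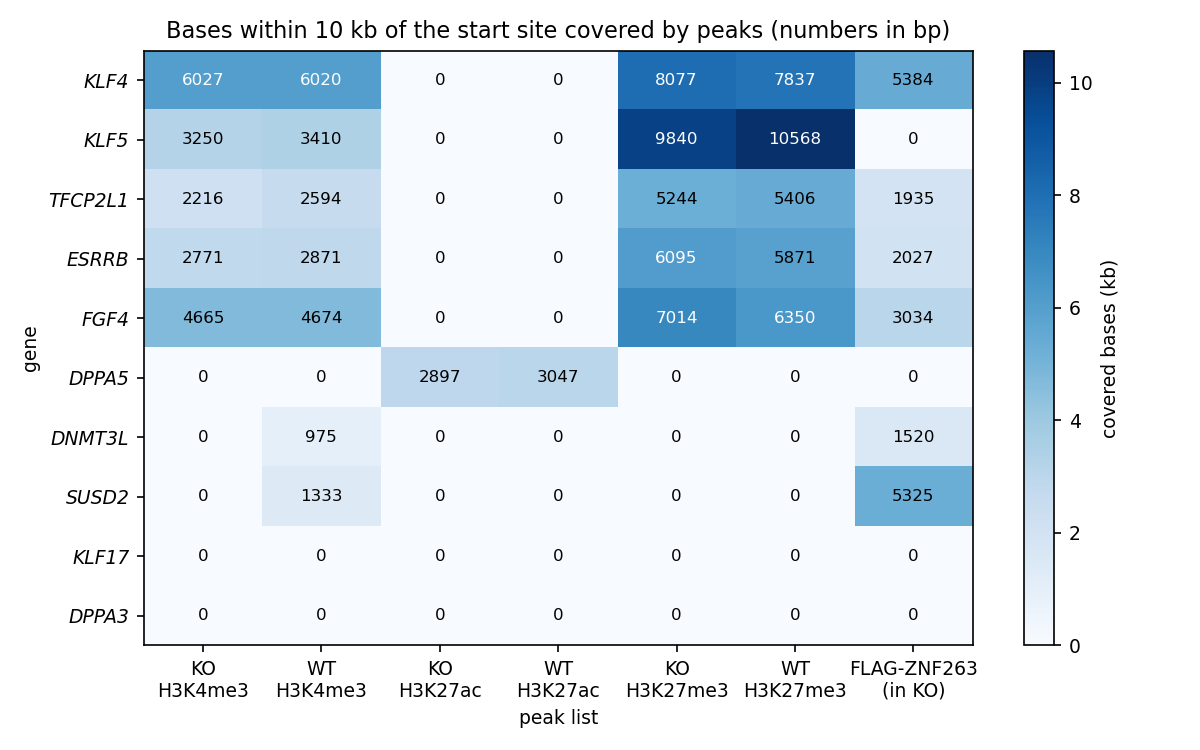
Bases within 10 kb of each start site that are covered by peaks, by gene (vertical axis) and peak list (horizontal axis), with the number of bases in each cell and the colour scale in kb. The upper 5 genes are filled for H3K4me3 and H3K27me3 in KO and WT alike and at 0 for H3K27ac, while KLF17 and DPPA3 are at 0 throughout.

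The promoter sequences of 7 of the 10 genes were in the RefSeq table of the GRCh38.p14 build, and 4 are shown because they lie at the extremes of what was found. KLF4 (chr9:107489770-107490019, minus strand) and TFCP2L1 (chr2:121285203-121285452, minus strand) had H3K4me3, H3K27me3 and a FLAG peak over the start site. DPPA5 (chr6:73354277-73354526, minus strand) and DPPA3 (chr12:7711183-7711432, plus strand) had no peak over it. Each line gives the 250 bases before the RefSeq start, 5′ to 3′ in the direction of the gene. Capitals mark GGAGGA, the repeated core of the known ZNF263 motif.
KLF4: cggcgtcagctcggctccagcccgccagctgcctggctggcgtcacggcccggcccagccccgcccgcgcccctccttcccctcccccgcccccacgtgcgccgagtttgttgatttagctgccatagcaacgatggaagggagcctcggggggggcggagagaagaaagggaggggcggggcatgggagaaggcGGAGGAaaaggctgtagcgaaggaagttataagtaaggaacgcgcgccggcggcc
TFCP2L1: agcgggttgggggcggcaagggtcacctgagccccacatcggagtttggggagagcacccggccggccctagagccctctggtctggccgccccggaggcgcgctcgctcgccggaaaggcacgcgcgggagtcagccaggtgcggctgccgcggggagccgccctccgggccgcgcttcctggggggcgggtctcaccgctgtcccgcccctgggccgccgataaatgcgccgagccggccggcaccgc
DPPA5: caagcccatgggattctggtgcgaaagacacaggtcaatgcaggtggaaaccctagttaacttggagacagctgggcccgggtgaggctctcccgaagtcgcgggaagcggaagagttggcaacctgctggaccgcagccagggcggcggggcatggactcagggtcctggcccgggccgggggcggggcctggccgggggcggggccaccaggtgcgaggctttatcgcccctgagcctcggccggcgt
DPPA3: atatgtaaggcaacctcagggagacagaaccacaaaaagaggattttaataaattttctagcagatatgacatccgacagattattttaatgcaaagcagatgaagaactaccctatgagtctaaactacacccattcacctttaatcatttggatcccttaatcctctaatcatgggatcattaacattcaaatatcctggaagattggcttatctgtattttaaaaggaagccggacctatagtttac

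The promoters differed in CpG content, measured over 300 bases (250 before and 50 after the start). The observed number of CpG dinucleotides over that expected from C and G content was 0.93 at KLF4 and 0.96 at TFCP2L1, above 83.7% and 87.1% of the 35116 promoters in the table. It was 0.65 at KLF17, 0.64 at DPPA5 and 0.55 at DPPA3, against a median of 0.58 over all promoters. DPPA3 was also poor in G and C, at 38.3%, where KLF4 had 69.0% and TFCP2L1 77.3%. DPPA5 (66.0%) and KLF17 (63.7%), also without a peak over the start, were not, and lay above the median of all promoters (58.7%). KLF4 and TFCP2L1, with all of H3K4me3, H3K27me3 and FLAG over the start, were thus CpG-rich. KLF17, DPPA5 and DPPA3 were near the median of all promoters in this ratio. FGF4 also had all of these peaks over its start, but FGF4, DNMT3L and SUSD2 had no promoter in the table. No link between CpG content and the peaks is read from so few promoters.

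RefSeq lists 2 starts for KLF5, with ratios of 0.33 and 0.98, and 3 for ESRRB, with ratios of 0.31, 0.23 and 0.35. The ESRRB ratios all lay below the median of 0.58, though H3K4me3, H3K27me3 and a FLAG peak lay within 10 kb of its hg19 site. The starts of KLF5 and ESRRB were not matched to the hg19 sites, because coordinates were not carried between builds. GGAGGA occurred on either strand in 3 of the 10 promoters of the 7 genes, 1 of KLF4 and 2 of ESRRB. Of all promoters of the same length, 36.6% held it. The longer GGAGGAGGA was in 1 of the 10, an ESRRB promoter, against 3.77% of all promoters. TFCP2L1 had a FLAG peak over its start and no GGAGGA in this window, and KLF4 had both, so the letters and the peak did not go together in this pair of promoters.

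The transcription factors with bivalent marks were examined first. KLF4 encodes a Krüppel-like factor that is one of the classic reprogramming factors. Its start (chromosome 9, 110252047) lay inside an H3K4me3 peak of 6027 bp in KO cells (110248415 to 110254441) and of 6020 bp in WT cells (110248531 to 110254550). H3K27me3 covered it with 8077 bp in KO (110247408 to 110255484) and 7837 bp in WT (110247530 to 110255366). These 4 peaks all had a score of 3100, a value of the authors' peak score that 41.0% of KO and 42.2% of WT H3K4me3 peaks share, and 15.6% of KO and 15.9% of WT H3K27me3 peaks. Under 1% of each of these lists scored higher. KLF4 had the widest H3K4me3 peak of the set, wider than 95.4% of KO and 95.5% of WT H3K4me3 peaks.

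KLF5 encodes a related factor with roles in the early embryo. Its start (chromosome 13, 73633142) lay in H3K4me3 of 3250 bp in KO (73631979 to 73635228) and 3410 bp in WT (73631823 to 73635232). The H3K27me3 peak was the widest of the set, with 9840 bp in KO (73630334 to 73640173) and 10568 bp in WT (73630121 to 73640688). All 4 peaks were at the score of 3100. KLF5 was the only one of the 5 bivalent genes without a FLAG peak, and the nearest lay 276.54 kb away.

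TFCP2L1 encodes a transcription factor of the naive network. Its start (chromosome 2, 122042778) carried H3K4me3 of 2216 bp in KO (122041292 to 122043507) and 2594 bp in WT (122041143 to 122043736), both with a score of 3100. The H3K27me3 peak spanned 5244 bp in KO (122039540 to 122044783) and 5406 bp in WT (122039557 to 122044962), with scores of 1406 in KO and 1876 in WT. This was the only one of the 5 bivalent genes whose H3K27me3 score lay below 3100, and it still stood above 73.9% of the KO list and 77.7% of the WT list.

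ESRRB encodes an orphan nuclear receptor that is a core naive factor in mouse. None of the 7 lists had a peak over its start (chromosome 14, 76837690), and the marks lay downstream in the gene's direction. H3K27me3 covered 6095 bp in KO (76839985 to 76846079) and 5871 bp in WT (76840040 to 76845910), beginning 2.295 kb and 2.35 kb from the start. H3K4me3 was 1 peak of 2771 bp in KO (76841795 to 76844565). In WT it was called as 2 peaks, of 597 bp (76841672 to 76842268, score 51.57) and 2274 bp (76842362 to 76844635, score 3100). The single KO peak overlapped both, so neither was specific to WT. The last pair of the 3 RefSeq starts of ESRRB lies 4.87 kb apart in GRCh38.p14. Whether the bivalent region holds one of these starts was not tested.

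FGF4, a secreted growth factor made by the epiblast, was the only ligand in the set. Its start (chromosome 11, 69590171) lay in an H3K4me3 peak of 2800 bp in KO (69588332 to 69591131, score 2788) and 2785 bp in WT (69588341 to 69591125, score 2970). H3K27me3 covered 7014 bp in KO (69586209 to 69593222) and 6350 bp in WT (69586178 to 69592527), both at 3100. A second, weaker H3K4me3 peak lay on the side of lower coordinates, 1865 bp wide in KO (score 140.08) and 1889 bp wide in WT (score 67.76). FGF4 thus had the same layout in both genotypes, with a difference of 15 bp between the 2 peaks over the start.

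**Figure D2:**
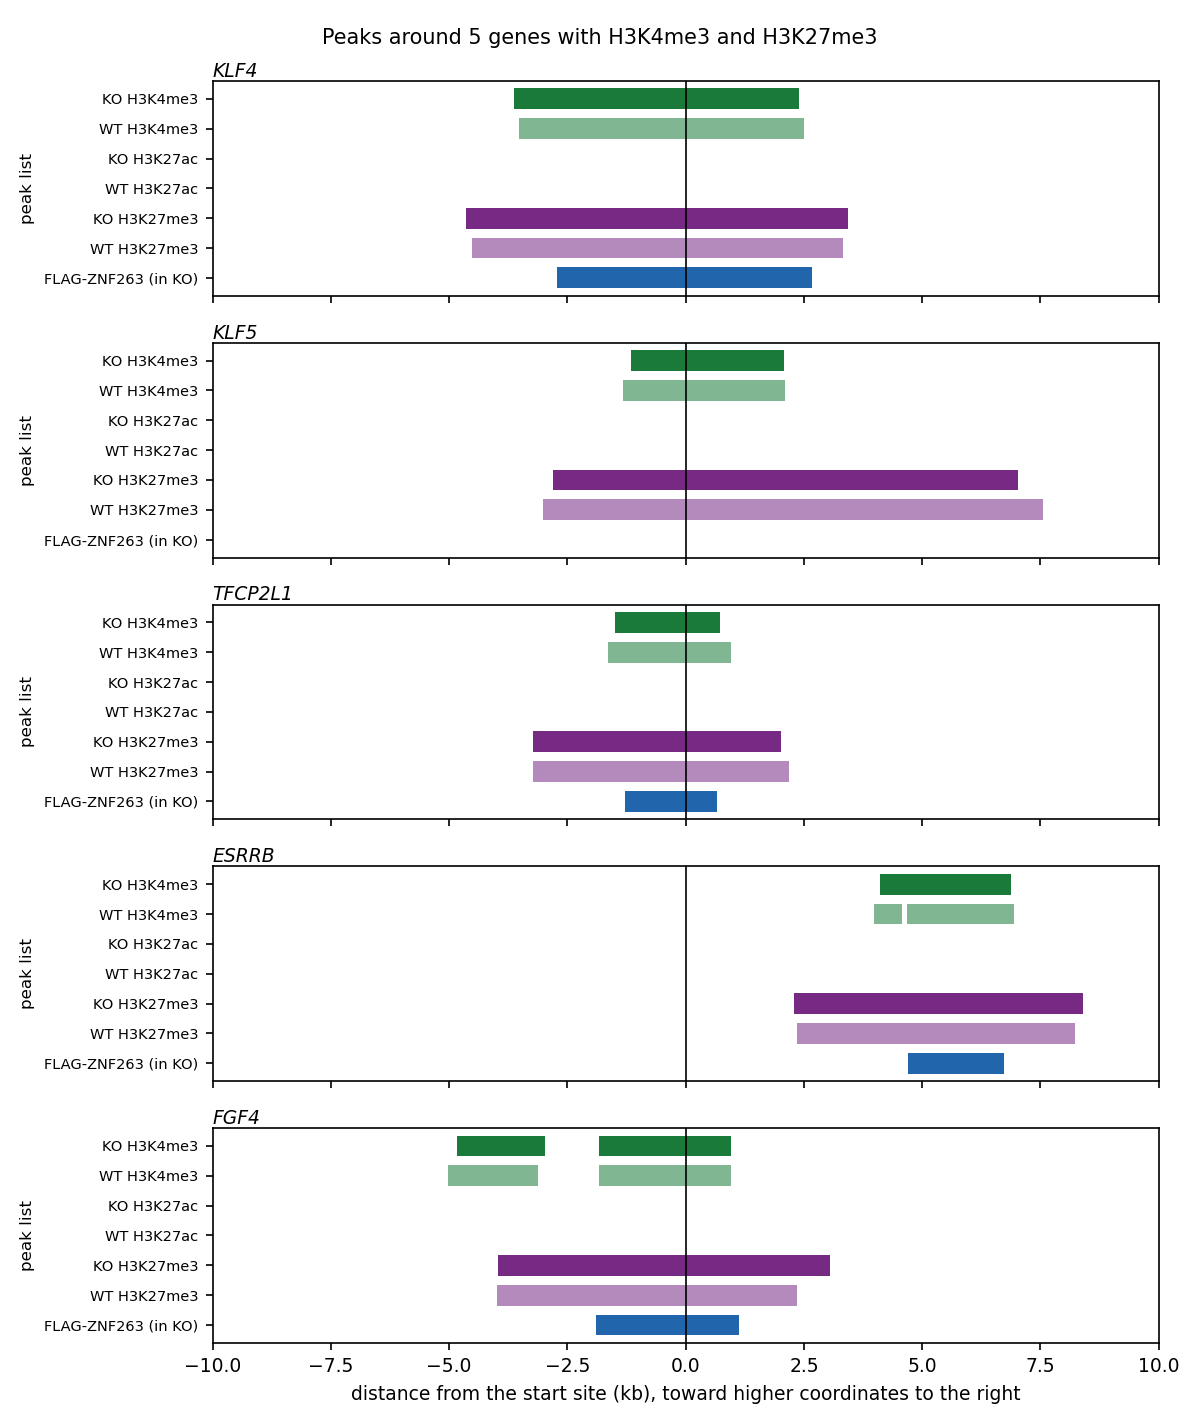
Peaks of the 7 lists around KLF4, KLF5, TFCP2L1, ESRRB and FGF4, with the distance from the start site in kb on the horizontal axis and 1 row per list (dark bars KO, light bars WT, blue FLAG). H3K27me3 reaches beyond the H3K4me3 peak on both sides at KLF4, KLF5, TFCP2L1 and ESRRB, and the rows of H3K27ac are empty.

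The bivalent pattern was compared with the whole lists, that is, with how often the marks occur in general. Within 10 kb of the start, 5 genes had H3K4me3 in KO and 7 in WT, and 5 had H3K27me3 in each. Of 154542 tiles of 20 kb along the chromosomes, 16.7% held a KO and 17.4% a WT H3K4me3 peak, and 6.91% a KO and 7.66% a WT H3K27me3 peak. Such tiles include gene-poor sequence, so windows of the same reach centred on H3K4me3 peaks are the closer background. Of these, 35.4% in KO and 39.1% in WT held H3K27me3, and 48.2% in KO and 49.8% in WT held H3K27ac. None of the 5 KO genes or of the 7 WT genes with H3K4me3 had H3K27ac. Among the set's H3K4me3 peaks, 6 of 6 in KO and 7 of 9 in WT overlapped H3K27me3, against 30.7% of all KO and 33.4% of all WT H3K4me3 peaks. All bivalent H3K4me3 peaks also rarely carry H3K27ac, at 9.23% in KO and 14.0% in WT, so its absence from these 6 KO and 7 WT peaks lies near that background. No test was made of these counts.

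H3K4me3 lay whole inside 1 H3K27me3 peak for 5 of the 6 bivalent peaks in KO and 6 of the 7 in WT, and the exception in each was the second FGF4 peak. Over all bivalent peaks the share was 59.8% in KO and 56.2% in WT. The nearest H3K27ac peak was 50.01 kb from the KLF4 start in KO and 50.29 kb in WT. At FGF4 it lay 70.36 kb away in KO and 70.35 kb in WT, and at ESRRB 56.36 kb in KO and 56.11 kb in WT. For TFCP2L1 the distances were 204.52 kb in KO and 244.3 kb in WT, and for KLF5 276.48 kb in KO and 151.98 kb in WT. At KLF4, ESRRB and FGF4 the nearest acetylated region was the same in both genotypes. At KLF5 and TFCP2L1 the peaks nearest to the start were different ones, and those of KLF5 in WT (score 40.67) and TFCP2L1 in KO (score 46.22) were close to the lowest score of their lists, 40.

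The bivalent peaks differed little in position between KO and WT. None of the 5 KO H3K27me3 peaks was KO-only and none of the 5 WT peaks was WT-only, against 11.0% KO-only and 21.6% WT-only over the lists. Of the 6 KO H3K4me3 peaks none was KO-only, against 7.30% over the list. These list shares are not matched for score. Of KO H3K4me3 peaks at scores of 1000 to under 3100, and of 3100 or more, 0.0% were KO-only. All of the 6 scored that high except the second FGF4 peak (140.08), in a class with 9.6% KO-only. The H3K27me3 peaks scored 1406 or more, and shares by score were not computed for that mark. Nothing particular to these genes is read from these counts. All 5 genes that were bivalent in WT had both marks within 10 kb in KO. Over the list, 82.5% of all WT bivalent peaks overlapped both in KO, a stricter measure that counts single peaks and not genes. For peaks that matched 1 to 1, bases common to KO and WT were 89.7% to 97.0% of the joint length for the 5 H3K27me3 pairs (median 96.3%), where the median over all 8086 pairs was 88.8%. For 5 H3K4me3 pairs they were 83.9% to 99.5% (median 95.3%), where all 24423 pairs had a median of 90.9%. The lowest values were those of the second FGF4 peak (83.9%) and of TFCP2L1 (85.4%).

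Widths of H3K27me3 moved both ways. The KO peak was wider than the WT peak by 664 bp at FGF4, 240 bp at KLF4 and 224 bp at ESRRB. It was narrower at KLF5 and TFCP2L1, where KO minus WT was -728 bp and -162 bp. Summed over the 10 windows H3K27me3 covered 36270 bases in KO and 36032 in WT. No common direction was seen among the 5 genes.

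The other genes of the set, among them the Krüppel-like factor KLF17, had no bivalent region within 10 kb. DPPA5 encodes a KH-domain RNA-binding protein of early embryonic cells. It had no H3K4me3, H3K27me3 or FLAG peak within 10 kb of its start (chromosome 6, 74063999). An H3K27ac peak lay downstream in the gene's direction, of 2897 bp in KO (74057541 to 74060437, score 207.08) and 3047 bp in WT (74057627 to 74060673, score 267.35). It ended 3.562 kb from the start in KO and 3.326 kb in WT, and stood above 69.2% of the KO list and 73.6% of the WT list by score. This was the only acetylated region near any of the 10 genes, and 89.7% of its joint length was common to both genotypes. H3K27ac without H3K4me3 of the same genotype is common, at 35.0% of all KO and 29.0% of all WT H3K27ac peaks. The nearest H3K4me3 peak lay 33.75 kb from the start in KO and 33.59 kb in WT. Neither the KO nor the WT peak was exclusive, against 24.8% KO-only and 24.6% WT-only H3K27ac peaks over the lists.

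DPPA3 encodes a small maternal protein that protects DNA methylation in the zygote. Its start (chromosome 12, 7864089) had no peak of any list within 10 kb. Just outside, H3K27ac peaks of 2601 bp in KO (score 141.78) and 3078 bp in WT (score 164.6) lay 15.158 kb and 14.985 kb away. A WT-only H3K4me3 peak of 1499 bp with a score of 81.86 overlapped these. Of all WT H3K4me3 peaks with scores from 80 to under 100, 42.6% were WT-only. H3K27me3 was remote, with the nearest peak 928.82 kb away in KO and 547.6 kb in WT. That WT peak had a score of 47.5, close to the lowest of its list, 40.

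KLF17, a Krüppel-like factor of the human pre-implantation epiblast, likewise had no peak within 10 kb of its start (chromosome 1, 44584522). The nearest peak of any list was a FLAG peak 11.056 kb away, 903 bp wide with a score of 59.49, just outside the window. The nearest H3K4me3 lay 85.92 kb away in KO and 29.38 kb in WT, and the WT peak had a score of 60.59. H3K27me3 was 73.52 kb away in KO and 125.02 kb in WT, and the KO peak had a score of 41.56, close to the lowest of its list, 40. KLF17 and DPPA3 therefore lacked the bivalent marks seen at KLF4, KLF5, TFCP2L1, ESRRB and FGF4.

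**Figure D3:**
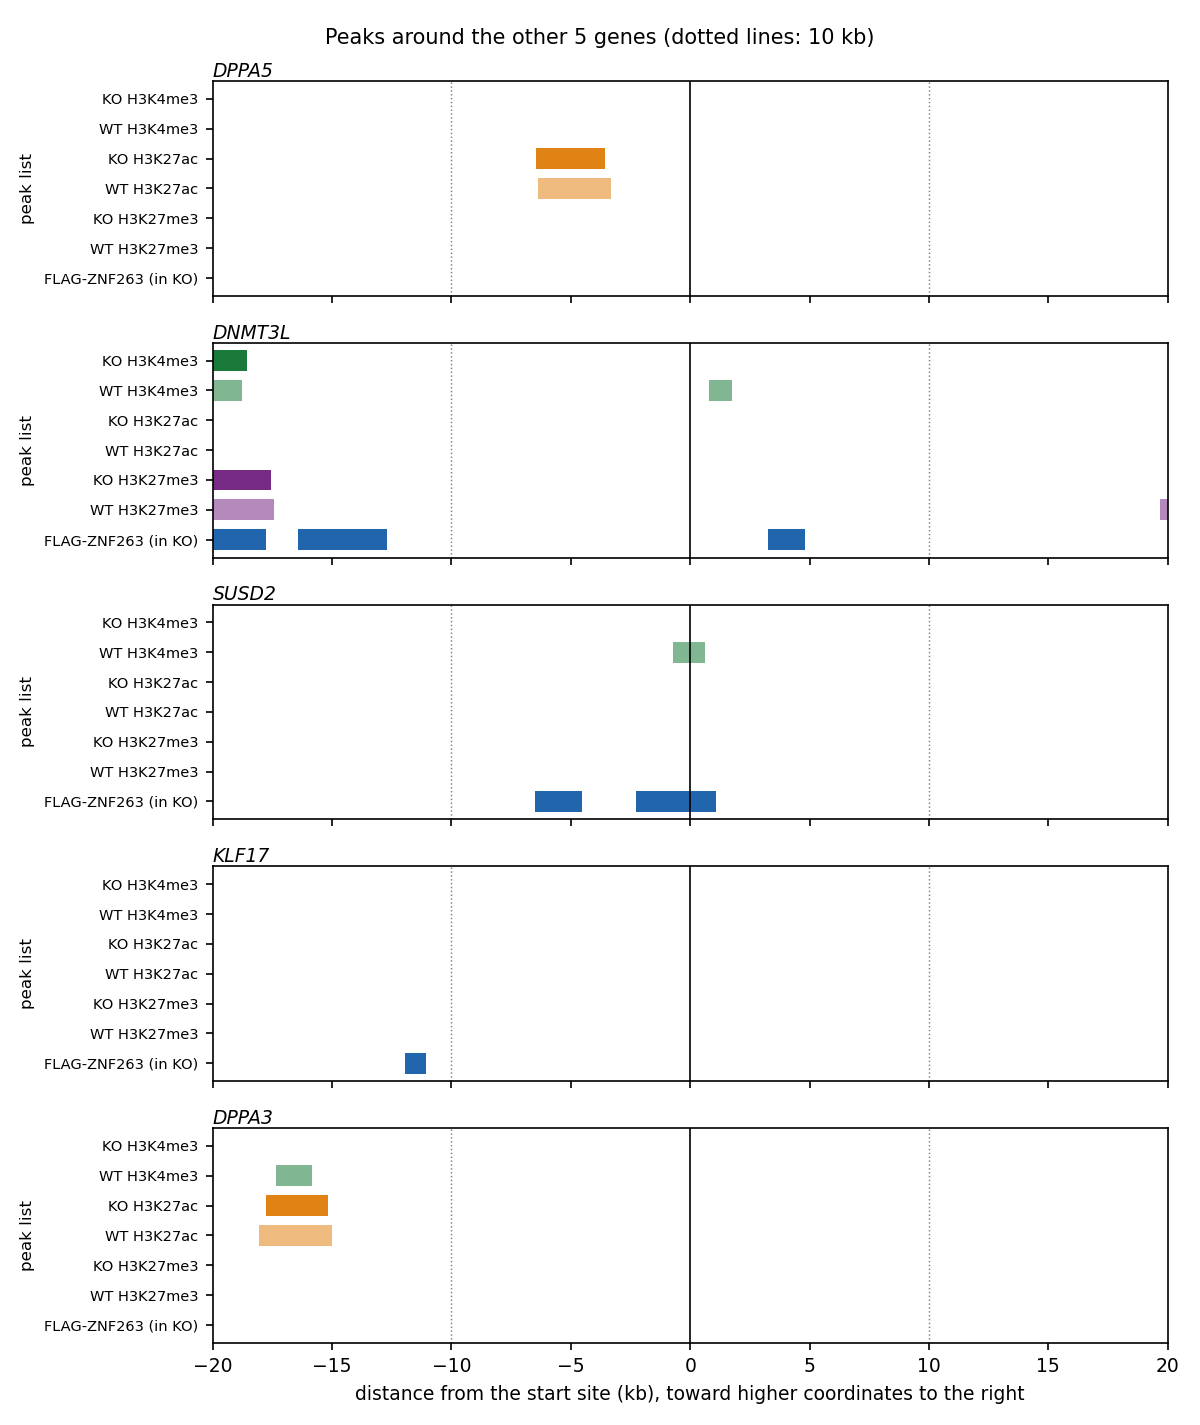
Peaks of the 7 lists within 20 kb of DPPA5, DNMT3L, SUSD2, KLF17 and DPPA3, with the distance from the start site in kb on the horizontal axis and dotted lines at 10 kb (dark bars KO, light bars WT, blue FLAG). H3K27ac is near DPPA5 in both genotypes, and H3K4me3 within 10 kb is present at DNMT3L and SUSD2 in WT and absent in KO.

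The peaks within 10 kb that were present in 1 genotype alone were 2 weak H3K4me3 peaks, both in WT. DNMT3L encodes a catalytically inactive partner of the de novo DNA methyltransferases. Its start (chromosome 21, 45682099) had no H3K4me3 peak in KO, where the nearest lay 18.58 kb away, and a WT peak of 975 bp (45682873 to 45683847) at 0.774 kb. SUSD2 encodes a cell-surface protein used to sort naive human cells. Its start (chromosome 22, 24577444) had no H3K4me3 peak in KO, where the nearest lay 23.77 kb away, and lay inside a WT peak of 1333 bp (24576733 to 24578065). Neither gene had H3K27ac or H3K27me3 within 10 kb in KO or WT.

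Both WT-only peaks lay near the threshold of the list. The DNMT3L peak had a score of 51.96 and the SUSD2 peak 60.05, in a list whose lowest score was 50, and only 1.12% and 5.19% of WT H3K4me3 peaks scored lower. WT-only peaks were thus 2 of the 9 WT H3K4me3 peaks of the set, against 12.3% of the whole list, but such low-scoring peaks often lacked a partner. Of the WT H3K4me3 peaks with scores from 50 to under 60, 65.8% had no KO peak, and of those from 60 to under 80, 55.4%. In KO cells, 673 of the 1347 peaks with scores from 50 to under 60, and 37.7% of those from 60 to under 80, had no WT peak. At scores of 1000 to under 3100 the WT-only share was 0.3%. The WT list is longer by 1534 peaks, and cut to the length of the KO list its lowest score was 60.32, which leaves out both peaks. A peak just under the caller's threshold in KO and a region without the mark cannot be told apart in these lists.

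**Figure D4:**
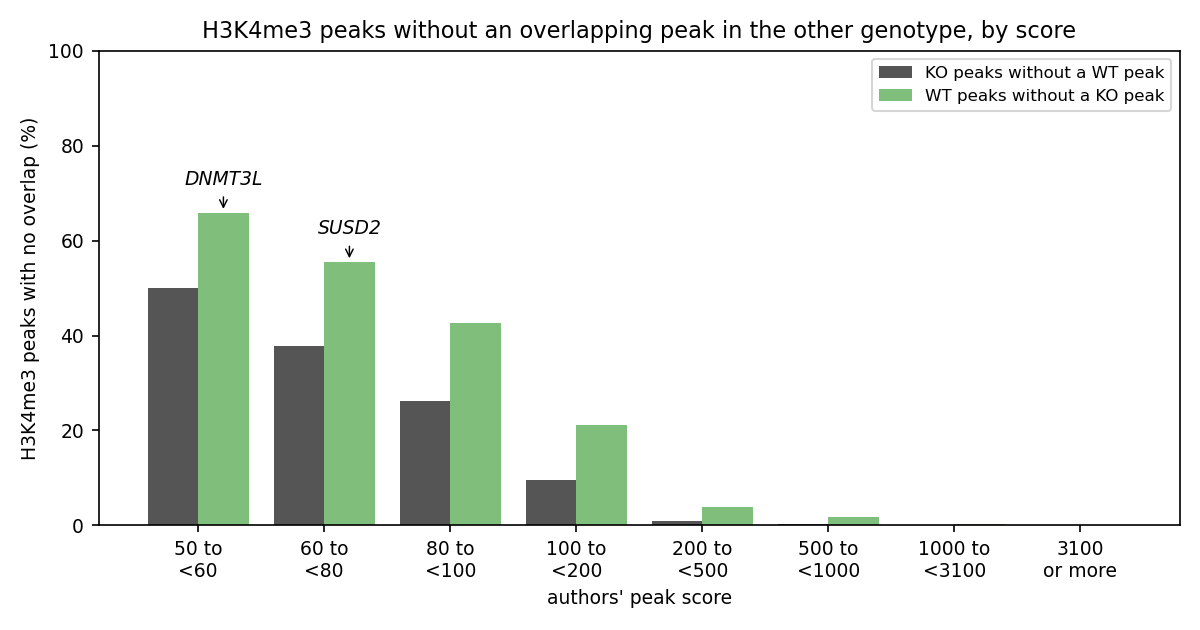
Share of H3K4me3 peaks with no overlapping peak in the other genotype (vertical axis, percent) by class of the authors' peak score (horizontal axis), for KO peaks (dark) and WT peaks (green). The classes of the WT peaks at DNMT3L (65.8%) and SUSD2 (55.4%) are labelled, and the share falls to 0.3% of WT peaks at scores of 1000 to under 3100.

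Tagged ZNF263 was found at 4 of the 5 bivalent genes. At KLF4 the FLAG peak spanned 5384 bp (110249330 to 110254713, score 95.7), wider than 97.2% of FLAG peaks, and at TFCP2L1 1935 bp (122041499 to 122043433, score 134.61). At FGF4 it spanned 3034 bp (69588270 to 69591303) and had the highest FLAG score of the set, 221.18, above 85.7% of the list. The ESRRB FLAG peak of 2027 bp (76842386 to 76844412, score 113.02) lay over the downstream bivalent region and not over the start. All 4 lay whole within H3K27me3 of both genotypes, and H3K4me3 covered 91.8% to 100% of each in KO and WT. FLAG peaks and H3K4me3 were therefore at the same place in these genes, off-centre from the start at ESRRB as well.

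The other FLAG peaks lay at SUSD2 and DNMT3L. SUSD2 had 2, of which one covered its start (24575168 to 24578522, score 115.82) and one lay 4.536 kb away (24570939 to 24572908, score 80.31). The WT-only H3K4me3 peak lay inside the peak over the start and made up 39.7% of its width. DNMT3L had a FLAG peak of 1520 bp (45685370 to 45686889, score 130.5) at 3.271 kb, which overlapped no histone peak of either genotype. The WT-only H3K4me3 peak itself overlapped FLAG at SUSD2 but not at DNMT3L. Of windows around all WT-only H3K4me3 peaks, 29.0% held a FLAG peak, and with 2 such genes nothing is read from their count. A further pair of FLAG peaks lay outside the window of DNMT3L, at 12.708 kb and 17.772 kb.

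Counted over the set, 6 of the 10 genes had a FLAG peak within 10 kb and 4 had it over the start, KLF4, TFCP2L1, FGF4 and SUSD2. FLAG peaks lay in 12.1% of the 20 kb tiles, and in 51.1% of windows around KO and 50.7% around WT H3K4me3 peaks. Near these genes, 4 of the 5 with H3K4me3 in KO and 6 of the 7 with it in WT had one. Of the bivalent H3K4me3 peaks of the set, 4 of 6 in KO and 4 of 7 in WT overlapped a FLAG peak, against 62.6% and 61.6% of all bivalent peaks, so the set lies near the background. Of its 7 FLAG peaks, 4 overlapped H3K4me3 in KO and 5 in WT, where 48.9% of all FLAG peaks did in KO and 11484 of the 22966 in WT. H3K27me3 held 4 of the 7 in each genotype, where the shares of all FLAG peaks were 25.2% in KO and 28.1% in WT. The scores were moderate, with 6 of 7 above the list's median of 86.68 and none above 221.18.

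**Figure D5:**
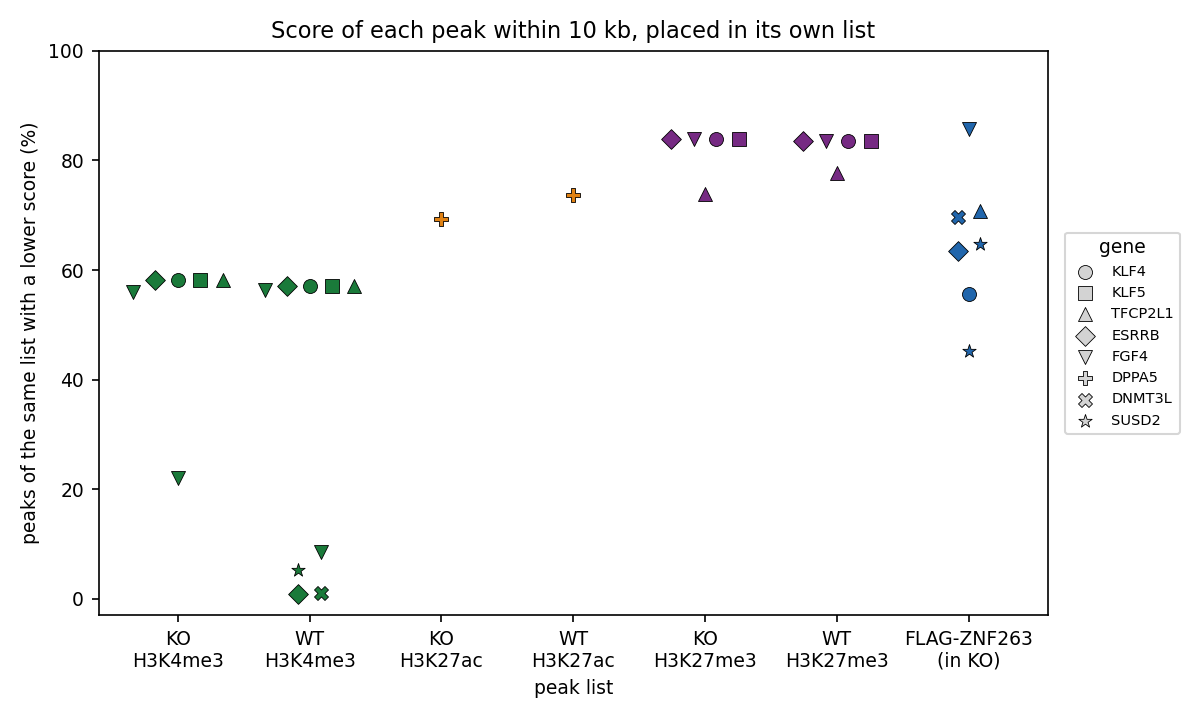
Place of each peak within 10 kb in its own list, as the percent of peaks of that list with a lower score (vertical axis), by list (horizontal axis) and gene (symbol, spread sideways where values are close). KLF4, KLF5 and ESRRB tie at a score of 3100 with a peak of each of H3K4me3 and H3K27me3. TFCP2L1 does so for H3K4me3 and FGF4 for H3K27me3. At the bottom of the WT H3K4me3 list lie the smaller ESRRB peak (0.89%) and the peaks of DNMT3L (1.12%) and SUSD2 (5.19%). The second FGF4 peak in WT is at 8.52%. FLAG peaks range from 45.2% at SUSD2 to 85.7% at FGF4.

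Just beyond 10 kb lay a second bivalent region of KLF5. H3K4me3 there was 1730 bp wide with a score of 190.81 in KO, against 1716 bp and 320.49 in WT, at 15.709 kb and 15.738 kb from the start. H3K27me3 was 1038 bp wide with a score of 43.82 in KO and 2572 bp wide with a score of 182.8 in WT. The KO H3K27me3 peak thus lay near the list's lowest score, and the WT peak above 41.4% of its list. Near ESRRB an H3K27me3 peak 17.142 kb away in KO and 17.043 kb in WT was 2999 bp wide in KO and 1905 bp in WT. H3K27me3 of these outer regions was thus narrower in KO at KLF5 and wider in KO at ESRRB.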

How the data were processed

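Peak lists of 7 ChIP-seq libraries from KO and WT H1 cells were used. Per the submitters' processing notes, Bowtie2, Picard and hg19 were used, with no version given. The peak names begin with MACS, per the deposited files. The caller's version, the input used and any pooling are not stated in the sources used here. The score of each peak is the authors' deposited value on a scale that is not given. Many H3K4me3 and H3K27me3 peaks share a score of 3100, and these are tied. Scores are printed for both genotypes but rank peaks only within their own list, and no change between KO and WT was read from them. Lowest scores were 40 for H3K27ac and H3K27me3 and 50 or 50.02 for the others, so the marks were not compared by peak number. The lists hold no read counts, so depth is unknown. The FLAG list lacks 186 of 23152 peak numbers, and its name ends in noblk, so part of the called peaks seem to be missing from it. The labels of the 2 libraries of endogenous ZNF263 also name the FLAG list, and their own peaks were not analysed here. Groups came from sample titles.

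Start sites are hg19 positions given with the gene names. Coordinates are counted from 1. Peaks that overlapped one of the other genotype by at least 1 bp count as shared, the others as KO-only or WT-only. Tiles of 20 kb ran to the last peak of each of the chromosomes. Shares over whole lists are complete counts and carry no sampling interval. Promoters came from RefSeq (GRCh38.p14), and that build was used for sequence alone. Motifs were searched on both strands. Work was done in python 3.11.15 with numpy 2.4.6 and pandas 2.3.3, and plots in matplotlib 3.10.9. The overlap steps were tested on simulated data and against bedtools 2.31.1. The genes, lists and score classes were chosen with earlier results of these data known. All 10 genes and every peak within 10 kb are reported. Other genes of the naive and primed states were not analysed here, since no hg19 annotation was used.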

Additional observations from a re-analysis of the deposited data

How the results depend on the processing

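Of 122 alternatives for 30 results, 113 gave a value within 1.5 times the reported one and 9 did not. Some of the 113 could not move. Equal length cuts only the longer list of each mark, so results on the shorter list or the FLAG list alone stay the same by construction. With the 50% of peaks that scored highest, and with both lists of a mark cut to equal length, the 2 WT-only H3K4me3 peaks (DNMT3L and SUSD2) became 0, and WT genes with H3K4me3 became 5, as in KO. Both settings remove peaks of low score by construction. With 20 kb on each side, genes with H3K27ac became 2 in KO and 2 in WT (DPPA3 was added), and H3K27ac covered 5498 bases in KO and 6125 in WT. With 5 kb on each side it covered 1439 in KO and 1675 in WT. The longer motif GGAGGAGGA was found in 1 member promoter, against 3 for GGAGGA. The number of genes with both H3K4me3 and H3K27me3 was 5 in KO and 5 in WT with 5 kb windows, among the highest-scoring 50% and at equal length, and 6 in each with 20 kb windows, where DNMT3L was added. In KO its H3K27me3 and H3K4me3 lay 17.552 kb and 18.583 kb from the start. Whether these peaks, or the H3K27ac added at DPPA3, belong to other genes was not tested. No paired analysis was possible because each group compared holds 1 library. Leaving out a replicate was not possible for the same reason. Depth is unknown, so a missing peak need not be a missing mark.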
